A study of Mus musculus with 5 samples.

Results

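Integrins are the receptors with which keratinocytes hold and pull on the matrix, and 10 of their genes with roles in migrating epidermis were examined for binding of SOX11 and SOX4: *Itga2*, *Itga3*, *Itga5*, *Itga6*, *Itga9*, *Itgav*, *Itgb1*, *Itgb4*, *Itgb5* and *Itgb6*. A binding site was counted for a gene when its centre lay in the gene body or within 10 kb of it, or when the closest transcription start of any protein-coding gene was that gene's. By this rule the 10 genes, of 22380 protein-coding genes, held 29 of 21270 SOX11 sites and 4 of 2669 SOX4 sites.

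The sites came from ChIP-seq of primary mouse keratinocytes of the genotype Krt14-Cre;Sox11fl/fl;Sox4fl/fl (dcKO; strain background labelled mixed 129SvEx:C57BL/6), taken from newborn skin and grown at first on feeder cells. The Krt14-Cre parents were FVB/N mice, and the floxed parents also lacked *Sox12*, for which the labels of these cells name no allele. The cells lacked their own *Sox11* and *Sox4* and carried a lentivirus from which doxycycline, given for 24 h, induced *Sox11* or *Sox4* with a triple FLAG tag. Chromatin was sheared to 100 to 500 bp and precipitated with an antibody to FLAG, with 2 libraries of SOX11-FLAG, 2 libraries of SOX4-FLAG and 1 control library, which is labelled both as input and as IgG. Both libraries of a factor had been joined into 1 list of sites with no height or score, so no spread between replicates can be given, and no list of the control was used here. Cre was driven by the *Krt14* promoter and the tagged proteins were induced from a vector, so the lists describe binding of added protein in cultured keratinocytes, not of the endogenous factors in a wound.

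Each integrin is a pair of an α and a β chain, and the pair decides which matrix protein is held. In resting epidermis, α6β4 anchors basal cells to laminin in hemidesmosomes and α2β1 and α3β1 bind collagen and laminin, while cells at a wound edge also use the fibronectin receptor α5β1, the αv receptors for vitronectin and fibronectin, and the tenascin receptor α9β1. SOX proteins bind short AT-rich words with their HMG box, and AP-1 and TEAD are factors whose motifs are common in active chromatin of keratinocytes.

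The sequences below are examples of sites that the factors share, 1 for each gene with such a site, and of SOX11 sites chosen for holding an AP-1 core, which 11 of 25 SOX11 sites without SOX4 did. They were read from the mm9 genome (NCBIM37) on the strand of the gene, 5′ to 3′. Capitals mark the cores searched on both strands: CATTGT and CTTTGT for SOX, TGAGTCA and TGACTCA for AP-1 (each the reverse complement of the other), and GGAATG for TEAD. On the opposite strand the SOX cores read ACAATG and ACAAAG, and the TEAD core reads CATTCC. The first 3 are sites that SOX11 and SOX4 share: in an intron of *Itga5* (chr15:103189080-103189337, minus strand), upstream of *Itga6* (chr2:71576714-71576971, plus strand) and at the promoter of *Itgb1* (chr8:131209368-131209553, plus strand, the part of the site before the transcript begins).
Itga5: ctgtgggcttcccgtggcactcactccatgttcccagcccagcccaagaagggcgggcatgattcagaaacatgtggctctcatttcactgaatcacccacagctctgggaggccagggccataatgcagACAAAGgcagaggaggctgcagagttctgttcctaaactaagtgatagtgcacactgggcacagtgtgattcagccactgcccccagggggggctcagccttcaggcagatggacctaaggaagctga
Itga6: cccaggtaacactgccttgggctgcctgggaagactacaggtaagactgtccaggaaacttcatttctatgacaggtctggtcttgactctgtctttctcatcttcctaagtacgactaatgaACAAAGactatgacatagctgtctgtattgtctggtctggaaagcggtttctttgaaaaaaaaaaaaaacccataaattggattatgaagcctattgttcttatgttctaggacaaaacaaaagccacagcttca
Itgb1: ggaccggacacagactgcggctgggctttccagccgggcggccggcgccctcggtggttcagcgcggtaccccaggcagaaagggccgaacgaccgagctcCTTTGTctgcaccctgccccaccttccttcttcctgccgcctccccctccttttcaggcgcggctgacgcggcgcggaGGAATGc
Each of these carried 1 SOX core and no AP-1 core. The core read ACAAAG in *Itga5* and *Itga6* and CTTTGT in *Itgb1*, so all 3 were of the CTTTGT form, and the *Itgb1* stretch also held a TEAD core next to the transcription start.

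The next 3 are sites of SOX11 without SOX4 that held an AP-1 core, the earliest listed of 3 different genes among sites that touch no untranslated exon: upstream of *Itga3* (chr11:94954538-94954795, minus strand), in an intron of *Itgb5* (chr16:33873442-33873699, plus strand) and upstream of *Itgav* (chr2:83554949-83555206, plus strand).
Itga3: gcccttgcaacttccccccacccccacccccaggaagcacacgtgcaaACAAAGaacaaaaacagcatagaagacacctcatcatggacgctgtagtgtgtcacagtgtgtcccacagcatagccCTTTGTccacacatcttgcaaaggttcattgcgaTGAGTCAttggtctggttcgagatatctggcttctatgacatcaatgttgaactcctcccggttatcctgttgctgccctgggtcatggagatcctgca
Itgb5: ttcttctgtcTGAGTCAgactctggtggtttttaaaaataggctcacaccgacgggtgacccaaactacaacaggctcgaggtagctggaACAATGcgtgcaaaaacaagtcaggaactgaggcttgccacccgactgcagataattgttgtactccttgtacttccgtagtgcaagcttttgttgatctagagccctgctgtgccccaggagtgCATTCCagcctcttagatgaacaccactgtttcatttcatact
Itgav: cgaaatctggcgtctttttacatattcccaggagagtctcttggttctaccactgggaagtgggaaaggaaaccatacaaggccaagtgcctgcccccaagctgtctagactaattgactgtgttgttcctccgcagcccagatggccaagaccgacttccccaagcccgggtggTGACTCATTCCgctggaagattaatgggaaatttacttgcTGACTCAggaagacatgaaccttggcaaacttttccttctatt
In *Itga3* a pair of SOX cores stood to the 5′ side of the AP-1 core TGAGTCA. In *Itgb5* the AP-1 core lay near the 5′ end and the SOX core ACAATG further in. The *Itgav* site held no SOX core but 2 copies of TGACTCA, and the first of them overlapped a TEAD core by its last bases, so that both appear as 1 run of capitals.

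SOX11 sites were found at all 10 integrin genes, and SOX4 sites at 3 of them. With only sites in the gene body or within 10 kb counted, 10 of 10 genes had a SOX11 site (95% Wilson interval 72.2 to 100%), against 50.7% of all protein-coding genes. Long genes have more room for sites, and the windows of the integrin genes spanned 42.5 to 314 kb. Among the 8500 protein-coding genes with windows in that range, 64.9% had a SOX11 site. These genes match the integrin genes only in range: their median window was 70.5 kb, against 109 kb for the integrin genes. Their shares therefore come from mostly shorter windows, here and below. SOX4 sites lay in the windows of 3 of 10 genes (30%, interval 10.8 to 60.3%), against 10.2% of all protein-coding genes and 14.2% of those in the same length range. With gene bodies alone, the genes had 14 SOX11 sites at 8 genes and 1 SOX4 site, that of *Itga5*. By gene bodies, 28.9% of all protein-coding genes and 47.1% of those in the length range had a SOX11 site, and 5.71% and 9.8% a SOX4 site. By the closest start alone, the gene counts were 10 and 3, where 46.6% of all protein-coding genes had a SOX11 site and 10.1% a SOX4 site. All these intervals cover counting error only, and sites of 1 list are not replicates.

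The windows held 20 of the 29 SOX11 sites, with a median of 2 per gene and a range of 1 to 5. The median was 1 both for all protein-coding genes and for those of the same length range. Per 100 kb of window, the 10 genes together had 1.72 SOX11 sites, against 1.37 for all genes and 1.40 for genes of the same length range. *Itga3* had the densest window, with 3.82 sites per 100 kb, followed by *Itgb6* with 3.46. *Itga9*, the longest of the genes, had the sparsest, with 0.318.

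**Figure D1:**
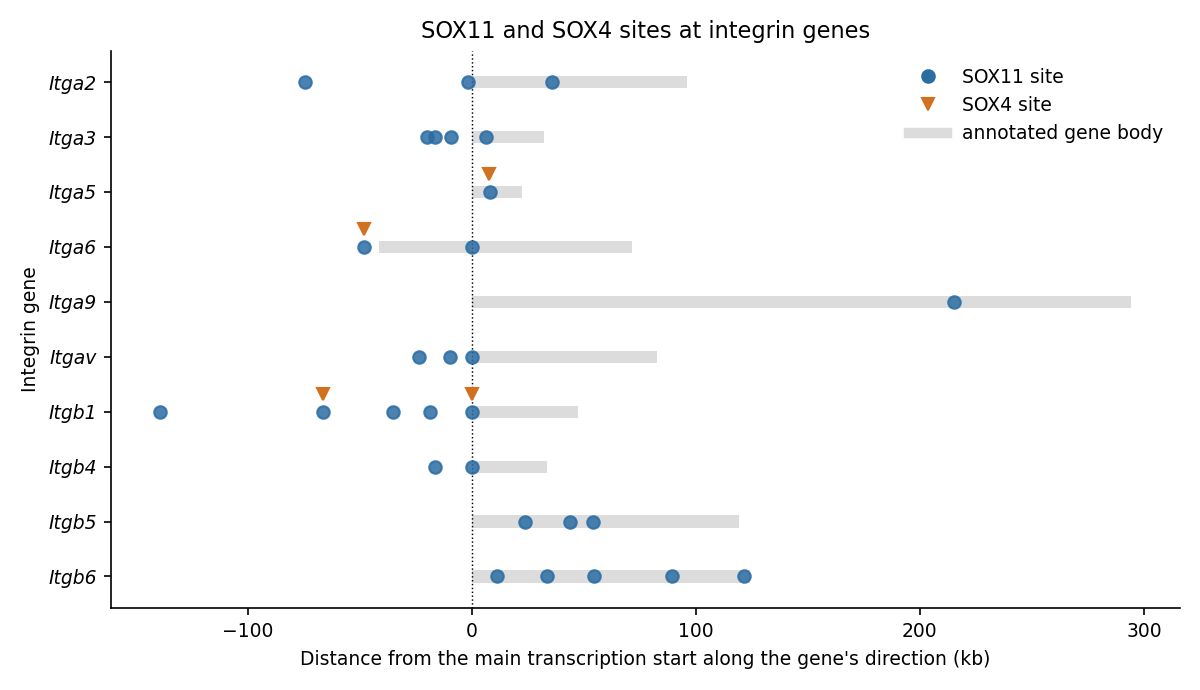
Each row is an integrin gene, and the horizontal axis is the distance in kb from its main transcription start (the start of the transcript with the longest coding sequence), positive into the gene. Circles are SOX11 sites, triangles are SOX4 sites and grey bars are annotated gene bodies; the sites of *Itgb5* and *Itgb6* all lie inside the gene, and 4 of the 5 sites of *Itgb1* lie far upstream.

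The fibronectin receptor is made of the chains encoded by *Itga5* and *Itgb1*, and both genes had a site shared by the factors. *Itga5* had 1 SOX11 site, in intron 2 of 29 and 7.99 kb past its start, which was number 1214 in the SOX11 list. SOX4 site number 1804 overlapped it over 217 bp, with centres 82 bp apart. *Itgb1*, whose chain pairs with all the α chains considered here, had 5 SOX11 sites and 2 SOX4 sites. The promoter site (chr8:131209368-131209625, centre 58 bp before the start) was number 143 in the SOX11 list, the earliest listed of the 29, and lay wholly inside SOX4 site number 197. The second shared site (chr8:131143074-131143331) lay between genes, 66.4 kb upstream, as number 1405 in the SOX11 list, and its centre was 4 bp from that of SOX4 site number 1280. The other SOX11 sites of *Itgb1*, 18.6, 35.1 and 139 kb upstream, had no SOX4 site. All of these but the promoter site belonged to *Itgb1* only because its start was the closest. Of all protein-coding genes, 3.82% had 5 or more SOX11 sites by that rule.

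The laminin and hemidesmosome chains are encoded by *Itga6*, *Itgb4* and *Itga3*. *Itga6* had 2 SOX11 sites, and the earlier listed of them, number 658, was shared with SOX4 site number 472 over 209 bp, with centres 90 bp apart. It lay 6.83 kb before the most upstream annotated start, which belongs to a noncoding transcript, and 48.2 kb before the start of the main coding transcript. The second site, number 2217, lay at the promoter of the coding transcripts, with its centre 28 bp before the main start, and had no SOX4 site. *Itgb4*, which encodes the partner of α6 in hemidesmosomes, had 2 SOX11 sites and no SOX4 site. Number 3354 (chr11:115819348-115819605) lay 16.6 kb upstream of the main start in an intron of the neighbouring gene *Sap30bp*, and number 3485 lay in the promoter, 26 bp before the start of a coding transcript. *Itga3*, the laminin receptor chain used by moving keratinocytes, had 4 SOX11 sites and no SOX4 site. Its first site, number 528, lay 16.6 kb upstream, and the others, numbers 998, 1370 and 5136, lay in intron 2 of 25 and 19.9 and 9.10 kb upstream.

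The genes of the αv, β5 and β6 chains had SOX11 sites and no SOX4 site. *Itgav* encodes the α chain that pairs with β1, β5 and β6, and it had 3 SOX11 sites. The first, number 3248 (chr2:83564419-83564676), was centred 7 bp before the start, and the others lay 23.6 and 9.48 kb upstream. *Itgb5*, for the vitronectin receptor chain, had 3 sites, all in introns: number 1333 in intron 3, number 4183 in intron 2 and number 10185 in intron 4 of 14. *Itgb6*, whose chain appears in epidermis after wounding and activates latent TGFβ with αv, had 5 SOX11 sites, all in introns. They were spread over the whole gene, from 11.4 kb to 122 kb past the start, and the earliest listed was number 2433 (chr2:60527133-60527390) in intron 1 of 17. The last of them lay in intron 17 and was closer to the start of *Pla2r1*. Windows with 5 or more SOX11 sites occurred in 3.58% of genes in the same length range and in 1.92% of all protein-coding genes.

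The collagen receptor chain gene *Itga2* and the tenascin receptor chain gene *Itga9* had their SOX11 sites late in the list. The sites of *Itga2* were number 11530 (chr13:115686097-115686354, in intron 2 of 29), number 17735, 74.5 kb upstream inside an intron of *Itga1*, and number 19718, 1.80 kb upstream. *Itga9* had 1 site, number 19811 (chr9:118730822-118731079), in intron 18 of 27 and 215 kb past the main start. Neither gene had a SOX4 site.

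**Figure D2:**
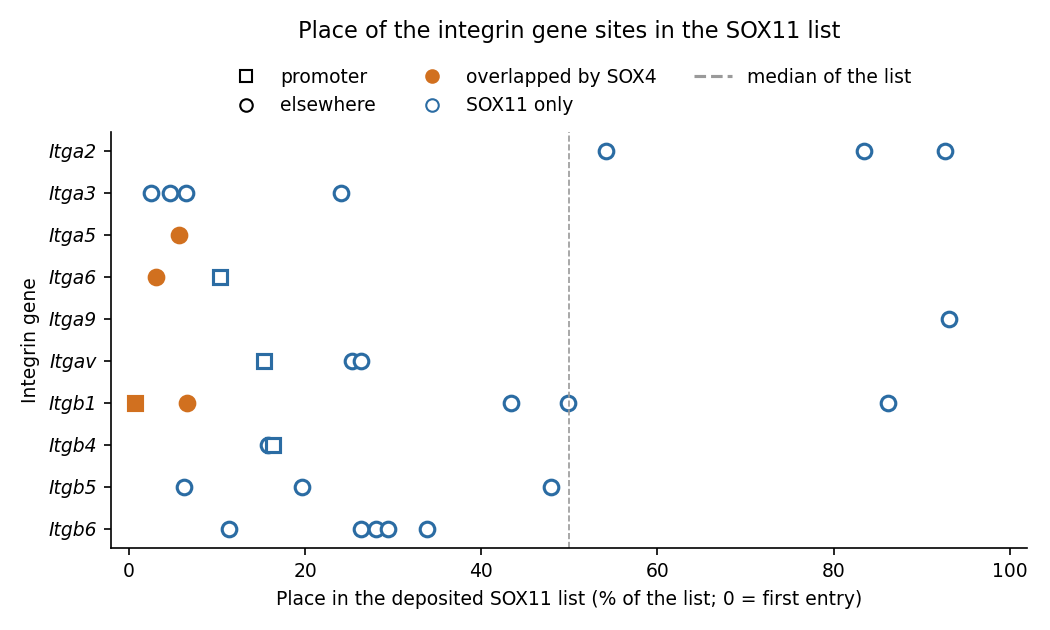
The horizontal axis is the place of each of the 29 SOX11 sites in the list of 21270, in % of the list counted from its first entry, with a row for each gene. Squares are promoter sites and filled symbols are sites overlapped by SOX4; the sites of *Itga2* and *Itga9* lie beyond the middle of the list, at 54.2 to 93.1%.

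The lists are not in genomic order, and no value says what their order stands for. In the SOX11 list, 24 of the 29 integrin sites (82.8%, interval 65.5 to 92.4%) were in the first 50% of the entries, and 15 (51.7%, interval 34.4 to 68.6%) were in the first 25%, where the whole list has 50% and 25% by definition. Their median place was 24.1% of the list. The sites in the first 50% belonged to 8 of 10 genes, all but *Itga2* and *Itga9*. Counted by windows, these 8 genes compare with 30.9% of all protein-coding genes and 41.1% of those in the same length range that had a SOX11 site from the first 50% of the list. The 4 shared sites stood between 0.672% (*Itgb1*) and 6.61% (also *Itgb1*), where the median place of all shared sites in the SOX11 list was 9.27%.

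SOX4 sites overlapped 4 of the 29 SOX11 sites (13.8%, interval 5.50 to 30.6%), a share close to the 11.9% of the whole SOX11 list. In the other direction, 4 of 4 SOX4 sites at integrin genes overlapped a SOX11 site, against 94.5% of the SOX4 list. SOX4 thus had no integrin site apart from SOX11 by the rule used here. The overlaps remained when at least 50% of the SOX4 site had to be covered.

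By position, 4 of 29 SOX11 sites (13.8%, interval 5.50 to 30.6%) lay in promoters, from 1 kb before to 100 bp after a transcription start, against 23.3% of the whole list. The 4 belonged to *Itga6*, *Itgav*, *Itgb1* and *Itgb4*. Introns held 14 sites (48.3%, interval 31.4 to 65.6%, against 33.4% of the list), 2 of them in a neighbouring gene, and 11 lay between genes (37.9%, interval 22.7 to 56.0%, against 40.0%). No site was centred in another exon, where 3.34% of the list lay. Of the sites outside the gene bodies, 15 lay upstream and 0 downstream, but the closest-start rule reaches further upstream of a gene than past its end. The median distance to the closest start was 14.5 kb, against 11.5 kb for the whole list.

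The promoter sites differed from the others in base composition. Their GC content was between 70.9 and 76.4%, and that of the remaining 25 sites was between 40.7 and 58.1%, with a median of 51.2%. For the whole SOX11 list the medians were 64.7% at promoters and 49.6% elsewhere.

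**Figure D3:**
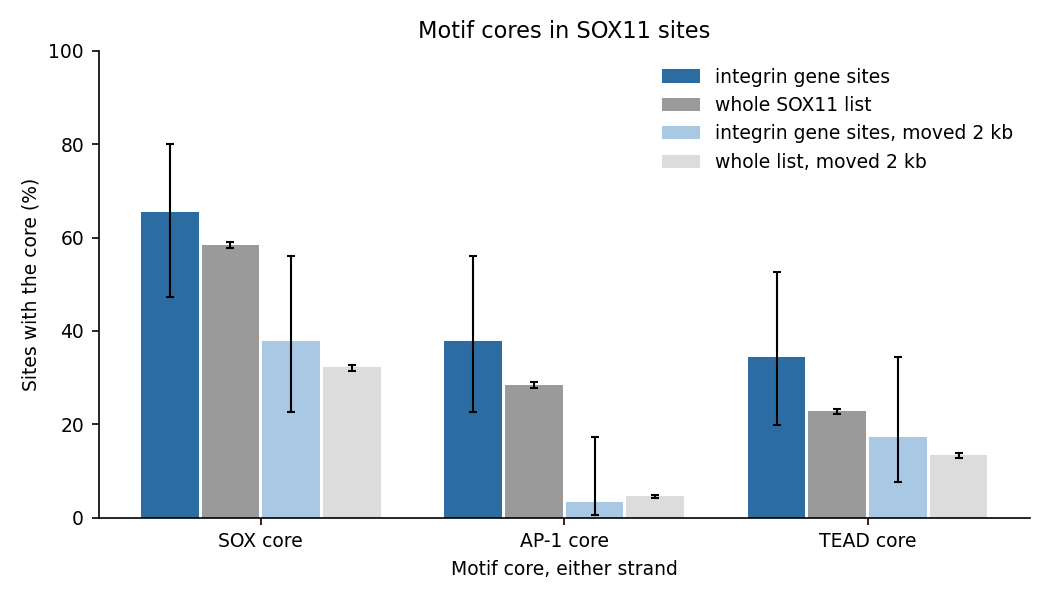
Bars give the share of SOX11 sites, in %, that held each motif core on either strand, for the 29 integrin sites and all 21270 sites. Further bars are for sequences of equal width 2 kb from each, towards higher chromosome coordinates. Error bars are 95% Wilson intervals; AP-1 cores were found in 37.9% of the integrin sites and in 3.45% of their shifted sequences.

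A SOX core was found in 19 of the 29 sites (65.5%, interval 47.3 to 80.1%), against 58.5% of the whole list. Sequences of the same width were taken 2 kb further along the chromosome, towards higher coordinates on either gene strand. They held a SOX core in 37.9% of cases for the integrin sites and in 32.2% for the whole list. An AP-1 core was found in 11 sites (37.9%, interval 22.7 to 56.0%), against 28.5% of the list, and in 1 of 29 shifted sequences (3.45%), against 4.59%. A TEAD core was found in 10 sites (34.5%, interval 19.9 to 52.7%), against 22.8% of the list, and in 17.2% of shifted sequences, against 13.4%. The whole-list share lay inside the interval of the integrin sites for each of the 3 cores. The CTTTGT form made up 17 of 23 SOX cores in the integrin sites (73.9%), near the 72.2% of the whole list.

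Sites of SOX11 alone and shared sites held the cores in different counts. All 4 shared sites had a SOX core and 0 of 4 an AP-1 core (interval 0 to 49.0%), whereas of the 25 SOX11 sites without SOX4, 15 had a SOX core and 11 an AP-1 core (44.0%, interval 26.7 to 62.9%). These intervals overlap, and in the whole SOX11 list an AP-1 core was found in 25.2% of shared sites and 29.0% of the others. SOX cores were found in 83.6% of all shared sites and in 55.1% of the others. The SOX4 site upstream of *Itgb1* was wider than the SOX11 site and held an AP-1 core near its edge, 126 bp from its centre.

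Among the promoter sites, that of *Itgb1* had a SOX core and that of *Itgb4* an AP-1 core, while those of *Itga6* and *Itgav* had neither. In the whole list 38.1% of promoter sites had a SOX core and 6.27% an AP-1 core. Away from promoters, 18 of 25 integrin sites (72.0%, interval 52.4 to 85.7%) had a SOX core, against 64.7% of the list. An absent core says only that these letters were not in the site.

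**Figure D4:**
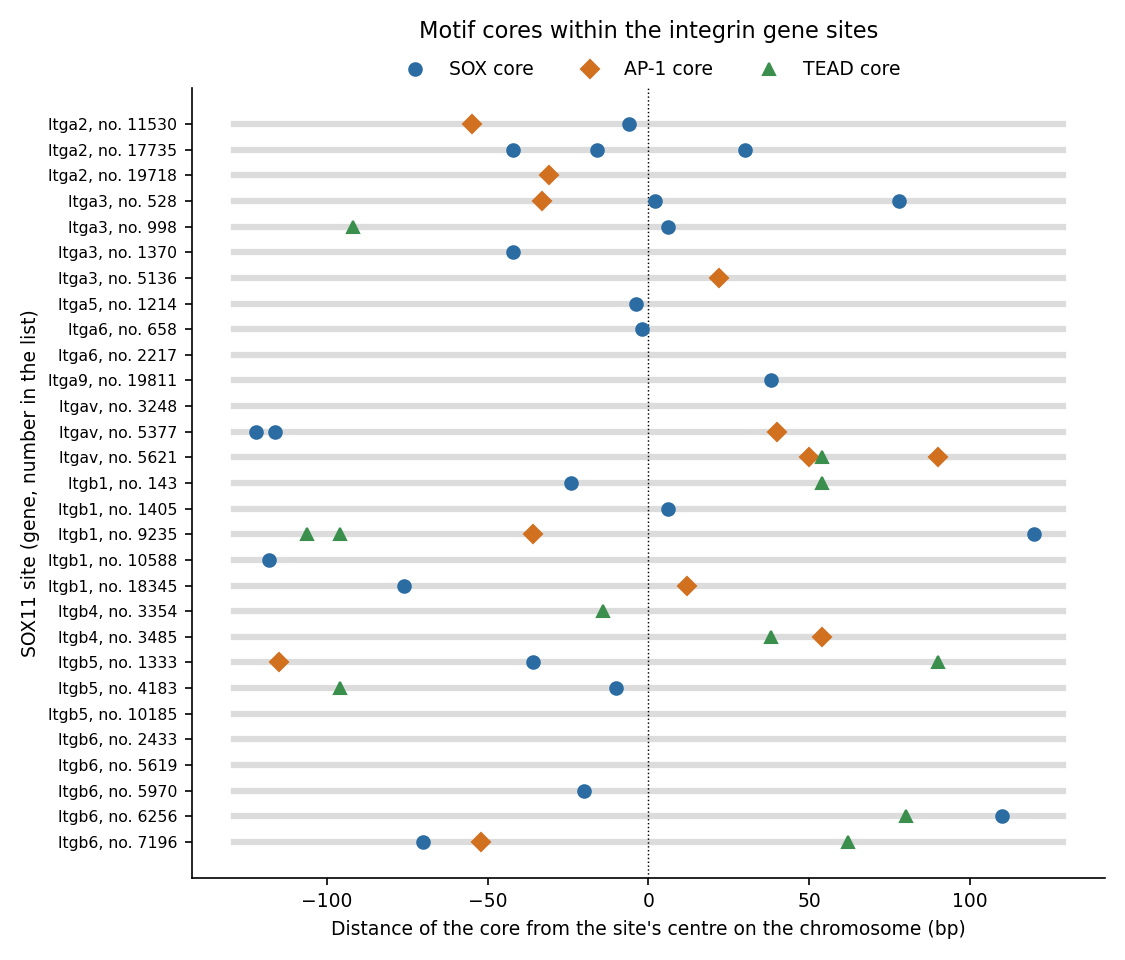
Each row is 1 of the 29 SOX11 sites (grey bar, 258 bp wide) with its gene and its number in the list, and the horizontal axis is the distance in bp of each core from the site's centre. SOX cores (circles) lie within 50 bp of the centre in 15 of 23 cases, AP-1 cores (diamonds) in 7 of 12 and TEAD cores (triangles) in 2 of 11.

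SOX cores lay close to the middle of the sites: 10 of 23 were within 25 bp of the centre and 15 within 50 bp (65.2%, against 68.1% in the whole list). In the shared sites of *Itga6*, *Itga5* and *Itgb1* the core was 2, 4 and 24 bp from the centre, and in the second shared site of *Itgb1* it was 6 bp away. AP-1 cores were within 50 bp in 7 of 12 cases (58.3%, against 51.7%). TEAD cores were within 50 bp in 2 of 11 cases (18.2%, interval 5.14 to 47.7%, against 43.6%). SOX and AP-1 cores stood together in 7 sites (24.1%, interval 12.2 to 42.1%, against 17.2% of the list), at *Itga2*, *Itga3*, *Itgav*, *Itgb1*, *Itgb5* and *Itgb6*. The gap between them ranged from 12 bp in the last intron of *Itgb6* to 149 bp, with a median of 73 bp against 44 bp in the whole list. SOX and AP-1 cores can share end bases, as they did in 110 of the 3656 sites of the list with both, but they did so in 0 of the 7.

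Genes that work with the integrins were counted in the same way, by windows of the gene body and 10 kb around. Of 20 genes of the adhesion complex inside the cell, 18 had a SOX11 site (90%, interval 69.9 to 97.2%), all but *Fermt2* and *Lims2*, against 50.7% of all protein-coding genes and 64.9% of those in the integrin genes' length range, in which 17 of the 20 fell. The most sites were at *Tns3* (8), *Tns1* and *Src* (6 each), 2 tensins and a kinase of focal adhesions. Their windows spanned 253, 234 and 73.4 kb, which gave 3.16, 2.56 and 8.17 sites per 100 kb. SOX4 sites lay at 5 of the 20 genes: *Vcl*, for vinculin, with 2, and *Parva*, *Src*, *Actn4* and *Tns3* with 1 each. That share of 25% (interval 11.2 to 46.9%) stands against 10.2% of all protein-coding genes and 14.2% of those in the length range, which lies inside the interval. All but that of *Parva* overlapped a SOX11 site, and the shared site in *Src* was number 17 of the SOX11 list and number 41 of the SOX4 list.

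Of 17 other integrin genes, most of them used by blood cells, muscle or mesenchyme, 11 had a SOX11 site (64.7%, interval 41.3 to 82.7%) and 0 a SOX4 site (interval 0 to 18.4%, which includes the 10.2% of all protein-coding genes and the 14.2% of the length range). *Itga2b* had 4 SOX11 sites, and *Itga1*, *Itga10*, *Itgb2*, *Itgb3* and *Itgb8* had 2 each. The share for SOX11 was near that of all genes in the integrin genes' length range, in which 12 of these 17 genes fell. In the first 50% of the SOX11 list, 5 of these 17 genes had a site, against 30.9% of all protein-coding genes and 41.1% of those in the length range; the counts were 16 of 20 adhesion complex genes, 8 of 14 ligand genes and 3 of 4 hemidesmosome partners.

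Among 14 genes of integrin ligands, 10 had a SOX11 site (71.4%, interval 45.4 to 88.3%), with the 50.7% of all protein-coding genes and the 64.9% of the length range both inside the interval. *Lama3*, for a laminin chain, had 5 sites, and *Tnc* and *Tgfb3* had 2 each. SOX4 sites lay at 2 of the 14 (14.3%, interval 4.01 to 39.9%), with 2 at *Tgfb3* and 1 at *Thbs1*, a share near the 10.2% of all protein-coding genes and the 14.2% of the length range. With sites in gene bodies alone, 4 of the 14 ligand genes had a SOX11 site, close to the 28.9% of all protein-coding genes and against 47.1% of the length range. Only 7 of the 14 fell in that range, and the median window of the 14 was 46.1 kb. Of the 4 hemidesmosome partners of α6β4, 3 had a SOX11 site (75%, interval 30.1 to 95.4%): *Dst* with 8 and *Col17a1* and *Cd151* with 2 each. The shares of 50.7% over all protein-coding genes and 64.9% over the length range lie inside this interval too. Of these 4 genes, 2 fell in the length range. *Dst*, with a window of 420 kb, lay beyond it and had 1.9 SOX11 sites per 100 kb. *Col17a1*, for a collagen that spans the membrane, also had 1 SOX4 site, 6.35 kb upstream. Per 100 kb of window, the adhesion complex genes together had 2.49 SOX11 sites, the ligand genes 2.26 and the hemidesmosome partners 2.03. The other integrin genes had 1.38, against 1.72 for the 10 integrin genes, 1.37 for all genes and 1.40 for the length range.

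**Figure D5:**
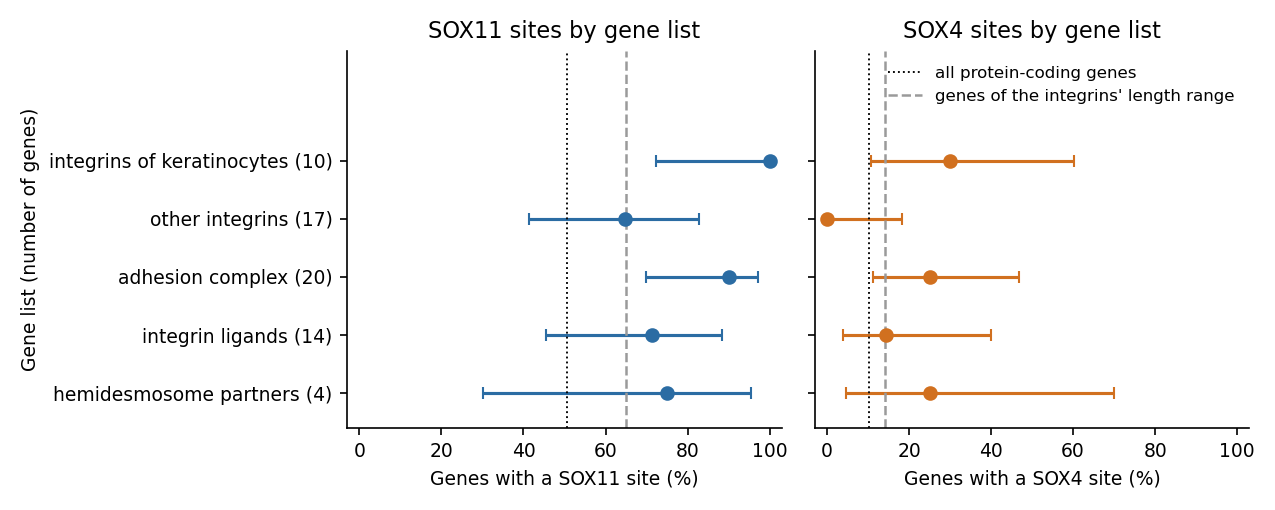
Points are the share of genes in each list, in %, with a SOX11 site (left) or a SOX4 site (right) in the gene body or 10 kb around it, with 95% Wilson intervals. The dotted line is the share over all protein-coding genes and the dashed line that over genes of the integrin genes' length range; the keratinocyte integrins stand at 100% for SOX11 and 30% for SOX4.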

How the data were processed

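The deposited lists give the chromosome, start and end of ChIP-seq sites and no other values. The authors aligned reads to mm9 (Bowtie2), took out duplicates (Picard), called sites with HOMER in factor style and subtracted blacklisted regions (bedtools); versions are not given in the sources used here, and depth is not in the lists. Starts were read as 0-based and are printed from 1. Genes came from GENCODE M1 on the same build. Overlaps of at least 1 bp were computed in Python 3.11.15 with numpy 2.4.6, and their number was checked with bedtools 2.31.1. Other tools were pysam 0.24.0, scipy 1.17.1 and matplotlib 3.10.9. Overlap, assignment and motif search were tested on simulated data. No test was run, since each factor has 1 list. The integrin genes and the other gene lists were chosen with earlier results of these data known. The rule for names took the 10 genes with their shared and earliest-listed sites, and, of the other lists, genes with a SOX4 site and the 3 with the most SOX11 sites (ties included); 1 gene is not reported here. Further sites, *Sap30bp*, *Pla2r1*, *Fermt2* and *Lims2* were named after their values were seen. Of 46 alternatives, 1 was chosen after seeing the data.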

Additional observations from a re-analysis of the deposited data

How the results depend on the processing

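Of 46 alternatives to 13 results, 38 stayed within 1.5 times the reported count or inside the interval of the reported share, and 8 did not. With sites in gene bodies alone, the integrin genes had 14 SOX11 sites and 1 SOX4 site, 1 integrin gene had a SOX4 site and 4 ligand genes had a SOX11 site; fewer sites qualify by construction, and the shares of all protein-coding genes were 28.9% for SOX11 and 5.71% for SOX4. With only 50 bp to each side of the centre searched, the core shares were 44.8% for SOX, 20.7% for AP-1 and 6.90% for TEAD, in shorter sequences. The whole-list shares for these shorter sequences are not given, so the drops cannot be set against the list. With the first 50% of the SOX11 list, 5 of the other integrin genes had a site. Promoters of protein-coding transcripts only, an alternative chosen after seeing the data, gave the reported share of 13.8%. No paired analysis was possible because the replicates of each factor were merged into 1 list and no result comes from a test, and for the same reason no replicate could be left out. Depth is unknown, so a gene without a SOX4 site cannot be told apart from one below the calling threshold, and the smaller SOX4 list limits every count of shared sites.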

Other observations

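Many SOX11 sites assigned to ligand genes lay far outside them. Such distances were common in the whole SOX11 list, where 52.1% of sites lay over 10 kb from the closest start. By the closest start, 3.82% of all protein-coding genes had 5 or more SOX11 sites. *Thbs1*, for thrombospondin 1, was the closest start for 15 SOX11 sites and 2 SOX4 sites, of which 1 SOX11 site and 1 SOX4 site were within 10 kb. *Tnc*, for the ligand of α9β1, was the closest start for 13 SOX11 sites, with 2 within its window, and for 1 SOX4 site 112 kb upstream. *Cyr61* had 6 SOX11 sites and 1 SOX4 site by the closest start and 0 in its window. *Plec*, for a hemidesmosome linker protein, likewise had 1 site of each factor by the closest start, overlapping each other, and 0 in its window. These genes were named after their values were seen.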
